A study of Mus musculus with 4 samples.

Results

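The genes described here encode the pore-forming and accessory subunits of voltage-gated sodium and calcium channels. They were chosen by gene symbol alone, as the Scn genes ending in a or b and the Cacna, Cacnb and Cacng genes, which gave 40 of the 50593 genes in the table. RNA came from sciatic nerve of mice of strain 129S1/SvImJ, all 6 months old, and the labels list 2 mice with genotype HSF V30M TTR and 2 with genotype HSF WT TTR. The methods state n = 4 and do not say whether this is per group. Mice of both groups carried a heterozygous deletion of Hsf1, the gene of heat shock factor 1. HSF V30M mice carried in addition a transgene for human transthyretin with the V30M substitution, on a background null for mouse Ttr, whereas HSF WT mice were wild type for transthyretin and had no transgene. The promoter of the transgene is not given in the sources used here. For each gene and group there is a single FPKM value, that is, the number of fragments relative to transcript length and library depth, as estimated by the authors over the libraries of the group. The files used here hold no values of single mice, so their spread is unknown, no test was made, and every difference below is a difference between 2 pooled values without a replicate check.

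Voltage-gated sodium channels open within a fraction of a millisecond of depolarization and carry the rising phase of the action potential. Each has 1 large alpha subunit of linked repeats that forms the pore, joined by small beta subunits that alter gating and act in adhesion. In myelinated axons the alpha subunits are packed at the nodes of Ranvier, where Nav1.6, encoded by Scn8a, is the main adult form. Voltage-gated calcium channels are built around an alpha1 pore, with an intracellular beta subunit and an extracellular alpha2delta subunit that help the pore to reach the membrane, and in skeletal muscle also a gamma subunit. The cell bodies of the axons in a sciatic nerve lie in the spinal cord and the dorsal root ganglia. Nerve RNA therefore holds transcripts of Schwann cells, fibroblasts, vessels and adjoining tissue together with what little RNA lies in axons, and in such bulk tissue fewer cells of a type and less RNA per cell cannot be told apart.

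The sodium channel alpha subunits differ in the pore itself, and 2 short coding stretches are shown because they separate Scn7a, the most abundant gene of the group in this nerve, and the toxin-resistant Scn10a from Scn8a. The first set codes for the pore loop of the third repeat, where a lysine gives sodium channels their selectivity. Each stretch has 27 bases, 5′ to 3′ on the coding strand, and the capitals mark the codon of that position, which is the 6th from the 5′ end. The sequences are from the GENCODE transcripts of GRCm38.
Scn8a: caagtggcaaccttcAAAggctggatg
Scn2a: caagtagccacatttAAAggatggatg
Scn7a: caagtggcaacatttAATggatggatc
Scn8a and Scn2a have the lysine codon, and Scn7a differs by K6N from Scn8a, with positions counted in codons of the stretch. Each of these stretches spans an exon junction. The Scn7a stretch lies on the minus strand of chromosome 2 in exon 20 (66684015 to 66684020) and exon 21 (66683300 to 66683320), and that of Scn8a on the plus strand of chromosome 15 in exon 22 (101029857 to 101029862) and exon 23 (101031710 to 101031730). The second set codes for the pore loop of the first repeat, and the capitals mark the residue known to set the sensitivity to the toxin tetrodotoxin. An aromatic residue there gives a sensitive channel, and serine a resistant one.
Scn8a: ctcatgactcaggacTACtgggagaac
Scn2a: cttatgactcaagacTTCtgggaaaac
Scn10a: ctcatgacgcaggacTCCtgggaacgg
Relative to Scn8a, the codon differs by Y6F in Scn2a and by Y6S in Scn10a. The stretches lie in exon 9 of Scn8a (chromosome 15, 100971623 to 100971649), exon 8 of Scn2a (chromosome 2, 65688421 to 65688447) and exon 8 of Scn10a (chromosome 9, 119666378 to 119666404).

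Of the 40 subunit genes, 17 reached a mean of 1 FPKM over both groups and 23 were lower, and no gene was at 0 in both. The ratio of the groups is given as log2((HSF V30M + 1) / (HSF WT + 1)), a scale that understates the change of low genes, and a gene counts as past the fold where this exceeds 1.5 times in either direction. Scn8a was among the genes past the fold toward the label HSF V30M, and no gene with a mean of at least 1 was past it in the other direction. Thus 2 of 17 subunit genes were higher, beside 8.22% of the 15620 genes of the table with the same minimum, and 0 of 17 were lower, beside 8.44%. Among the 12715 protein-coding genes of that minimum, the shares were smaller, 5.03% higher and 5.32% lower. With so few genes, these counts do not set the subunits apart from the rest of the table. Counting without a pseudocount gives 4 higher genes, with Cacng7 and Cacnb2 added, and 0 lower. The share of all genes was not computed without a pseudocount, so this count cannot be set beside 8.22%. The median log2 ratio was 0.13 over the 17 genes, against 0.00 over all genes of that minimum, and the single ratios ran from -0.45 for Cacna1a to 0.76 for Scn8a. Where every subunit gene is taken, without a minimum, 2 of 40 are higher, 3 are lower (Cacna1e, Cacna1f and Cacng1) and the median is -0.09. The share and median of all genes without a minimum were not computed, so these values have no background beside them.

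**Figure D1:**
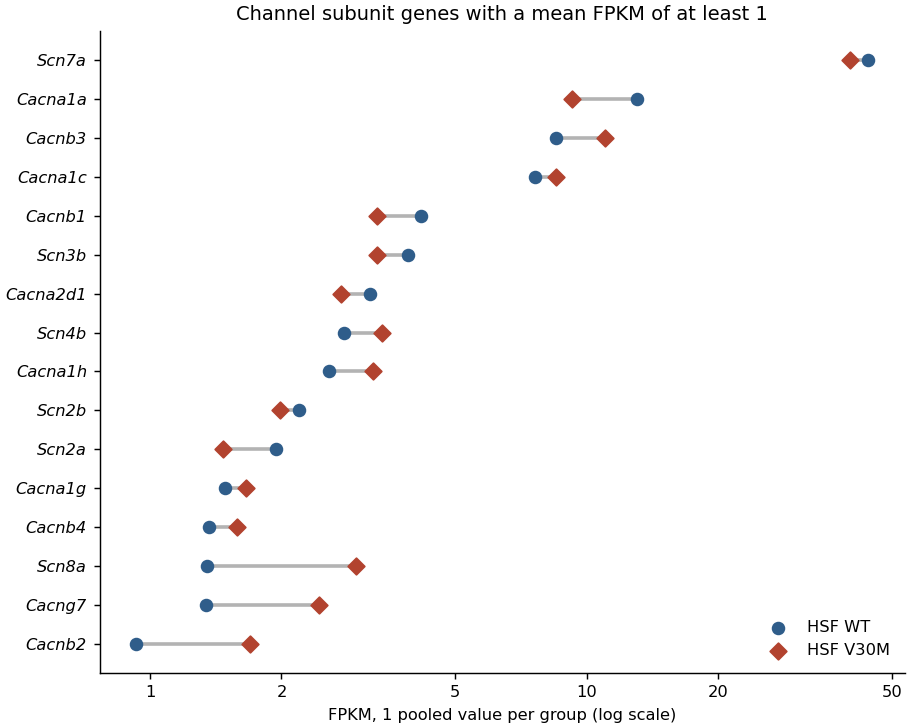
FPKM of 16 of the subunit genes with a mean of at least 1, ordered by HSF WT, on a log axis. Circles are HSF WT, diamonds HSF V30M and grey lines join the 2 pooled values of a gene; Scn7a stands highest in both groups, and Scn8a has the widest gap, 1.35 against 2.97.

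Among the sodium channel alpha subunits, Scn7a was by far the most abundant. Scn7a (ENSMUSG00000034810, chromosome 2, 66673425 to 66784914, minus strand) encodes Nax, an atypical member known as a sensor of extracellular sodium rather than a channel gated by voltage, and it is known from non-myelinating Schwann cells. It stood at 40.2 FPKM in HSF V30M against 44.1 in HSF WT, a ratio of 0.912. It held 87.6% of the summed FPKM of the 10 alpha subunit genes in HSF V30M and 91.1% in HSF WT. The other 9 alpha subunits together came to 5.70 and 4.31. The list of 7 genes that mark non-myelinating Schwann cells had a median log2 ratio of -0.28, or -0.14 with a minimum mean FPKM of 5. By any amount, 3 of the 7 genes were higher and 4 lower in HSF V30M. Gfap, at 2.28 in HSF V30M against 8.77 in HSF WT, was the only gene of the list past the fold. The part of such cells in the Scn7a values was not tested.

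Scn8a had the largest ratio of the 17 genes. Scn8a (ENSMUSG00000023033, chromosome 15, 100869858 to 101045938, plus strand), the gene of Nav1.6, stood at 2.97 FPKM for the label HSF V30M against 1.35 for HSF WT, a ratio of 2.20. Low values of the table are stepped, which gives the worth of a single fragment, and by this measure the values stand for about 485 and 169 fragments on the shortest principal transcript of the gene. The 95% counting interval of the ratio, an exact binomial interval on these fragments, runs from 1.84 to 2.64. It covers counting error only, and says nothing of the spread between mice. Scn2a, which encodes Nav1.2, the form of immature nodes and of unmyelinated axons, went the other way, with 1.47 in HSF V30M against 1.94 in HSF WT and a ratio of 0.758 (counting interval 0.645 to 0.895). The order of these genes therefore differs between the groups: Scn8a stood at 2.02 times Scn2a in HSF V30M and at 0.696 times Scn2a in HSF WT. Leaving out Scn7a, Scn8a made up 52.1% of the alpha subunit FPKM in HSF V30M and 31.3% in HSF WT.

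The remaining alpha subunits were all under a mean FPKM of 1. Scn3a, mostly an embryonic neuronal form, was at 0.33 in HSF V30M against 0.168 in HSF WT, with about 65 and 25 fragments, and was higher by more than 1.5 times when no pseudocount is used. Scn9a, the gene of Nav1.7 in sensory and sympathetic neurons, was at 0.14 in HSF V30M against 0.286 in HSF WT, about 32 and 50 fragments. The channels of nociceptive neurons, Scn10a and Scn11a, and the central neuronal form Scn1a had at most 15 fragments in either group. Scn10a was at 0.08 and 0.150, Scn11a at 0.04 and 0.0485, and Scn1a at 0.06 and 0.0195, and differences of this kind were not detectable at this depth. Scn4a, the skeletal muscle channel, was at 0.06 in HSF V30M against 0.189 in HSF WT.

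The sodium channel beta subunits described here, small membrane proteins with an immunoglobulin fold that act on gating and on adhesion, stayed inside the fold. Scn4b was at 3.39 in HSF V30M against 2.78 in HSF WT, a ratio of 1.22 (counting interval 1.04 to 1.44). Scn3b was at 3.31 and 3.91, a ratio of 0.848, and Scn2b was at 1.98 and 2.19, a ratio of 0.903.

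**Figure D2:**
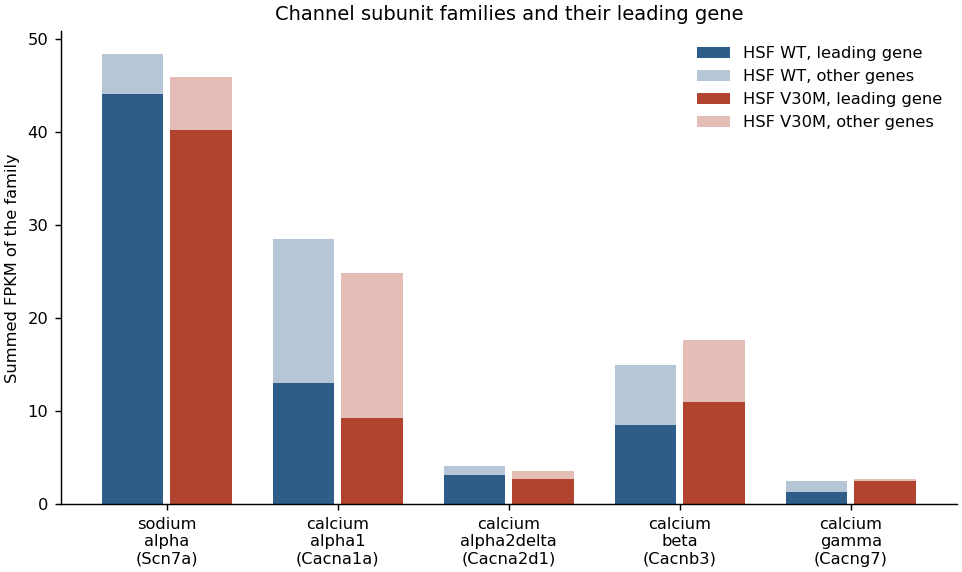
Summed FPKM of 5 subunit families in HSF WT (blue) and HSF V30M (red), with the leading gene of each family in the full colour and its other genes in the pale colour. The sodium beta family is not shown. The sodium alpha bars are mostly Scn7a, which holds 91.1% in HSF WT and 87.6% in HSF V30M, and the calcium alpha1 bars, 28.5 in HSF WT and 24.8 in HSF V30M, differ through Cacna1a.

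Of the 10 calcium channel alpha1 genes, 4 had a mean FPKM of at least 1 and none of them was past the fold. Cacna1a (ENSMUSG00000034656, chromosome 8, 84388440 to 84640246, plus strand) encodes Cav2.1, the P/Q-type channel known for transmitter release at central and motor nerve endings. It was the most abundant alpha1 gene, with 9.28 in HSF V30M against 13.1 in HSF WT, a ratio of 0.710 (counting interval 0.664 to 0.759) and the lowest log2 ratio of the 17 genes, -0.45. Cacna1c, the L-type Cav1.2 of heart and smooth muscle, was at 8.53 and 7.62, a ratio of 1.12. The gene Dcp1b, which overlaps Cacna1c on the opposite strand, was itself at 7.99 and 7.76, and since no source used here states that counting used the strand, reads in the shared part cannot be assigned. Cacna1a was thus at 1.09 times Cacna1c in HSF V30M and at 1.72 times in HSF WT. Of the T-type genes, whose channels open at weak depolarization, Cacna1h was at 3.24 in HSF V30M against 2.57 in HSF WT, and Cacna1g at 1.66 and 1.49. Cacna1h shares part of its span with Tpsg1, which was at 0.95 and 2.02. The third, Cacna1i, was written as 0.00 in HSF V30M and was at 0.0578 in HSF WT, about 10 fragments.

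Cacna1e had the largest difference toward HSF WT among the genes with at least 20 fragments in both groups. Cacna1e (ENSMUSG00000004110, chromosome 1, 154390731 to 154884501, minus strand) encodes the R-type Cav2.3. It stood at 0.33 FPKM for the label HSF V30M against 1.05 for HSF WT, 3.18 times as much (counting interval 2.54 to 3.98), on about 115 and 280 fragments. Its mean FPKM of 0.690 is under the minimum, so it is not among the 17 genes, although its log2 ratio of -0.62 is past the fold. The N-type gene Cacna1b was at 0.44 in HSF V30M against 0.311 in HSF WT. The neuronal and endocrine L-type gene Cacna1d was at 0.73 and 0.963, and it shares part of its span with Chdh, a gene of FPKM 17.1 and 12.7. Of the 3 genes of the Cav2 group, Cacna1a and Cacna1e were thus lower and Cacna1b was higher in HSF V30M.

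Cacna1f, the L-type Cav1.4 of photoreceptors that has also been described in lymphocytes, was at 0.05 in HSF V30M against 0.578 in HSF WT, about 7 and 62 fragments. Markers of lymphocytes moved with it. All 5 of the 8 B cell genes with a mean of at least 1 and all 4 of the 8 such T cell genes were lower in HSF V30M past the fold. The summed FPKM of the B cell list was 4.05 in HSF V30M against 32.5 in HSF WT, and that of the T cell list was 3.67 and 15.0. None of the 16 genes was at 0 in both groups. The part of lymphocytes in the Cacna1f value was not tested.

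**Figure D3:**
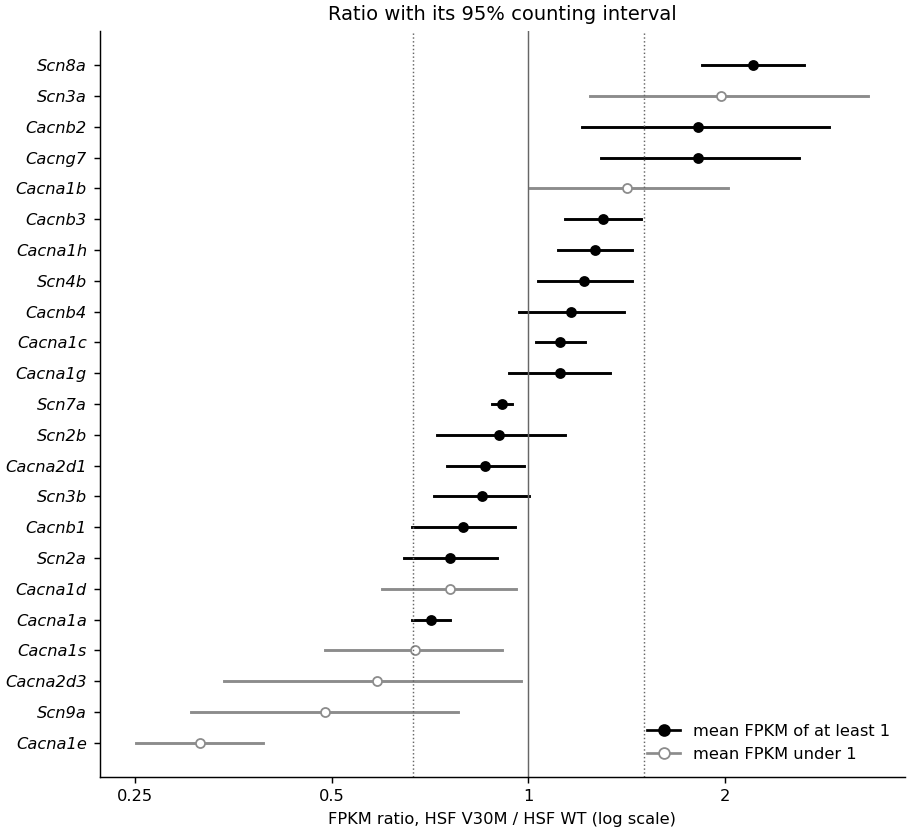
FPKM ratio of HSF V30M to HSF WT, without a pseudocount and on a log axis, for 23 subunit genes with at least 20 fragments in both groups. Points are ratios, bars their 95% counting intervals, open points genes with a mean FPKM under 1, and dotted lines a fold of 1.5 in each direction; Scn8a is furthest right and Cacna1e is furthest left, and the bars do not cover the spread between mice.

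The intracellular beta subunits were all above the minimum. Cacnb3, the leading one, was at 11.0 in HSF V30M against 8.49 in HSF WT, a ratio of 1.30 (counting interval 1.14 to 1.49). Cacnb2, the main beta subunit of heart muscle, was at 1.69 and 0.930, a ratio of 1.82 that rests on about 77 and 32 fragments and has a counting interval of 1.21 to 2.88. It shares its span with Gm13311, which was written as 0.00 in HSF V30M and was at 1.53 in HSF WT. Cacnb4 was at 1.58 and 1.36. Cacnb1, whose product is the beta subunit of the skeletal muscle channel, was at 3.31 in HSF V30M against 4.17 in HSF WT. None of the 4 was past the fold on the scale with a pseudocount. Summed over the 4 genes, FPKM was 17.6 in HSF V30M against 14.9 in HSF WT.

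Of the alpha2delta genes, whose products are the binding sites of the gabapentinoid drugs in the case of Cacna2d1 and Cacna2d2, Cacna2d1 had a mean of at least 1, with 2.74 in HSF V30M against 3.19 in HSF WT. Cacna2d3 was at 0.34 and 0.580, and Cacna2d2 at 0.08 and 0.218, both lower in HSF V30M. Cacna2d4 was at 0.36 and 0.0864, on about 48 and 9 fragments, and is thus the member of this group that was higher in HSF V30M. Its neighbour Lrtm2, which overlaps it on the opposite strand, was at 1.24 and 0.928.

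The gamma family includes the muscle subunits Cacng1 and Cacng6 as well as genes whose products are better known as partners of AMPA-type glutamate receptors. Only Cacng7, of the latter kind, had a mean of at least 1. It stood at 2.44 FPKM in HSF V30M against 1.34 in HSF WT, a ratio of 1.82 (counting interval 1.29 to 2.59) on about 116 and 49 fragments, with a log2 ratio of 0.55 just inside the fold. Cacng8, which lies next to it on chromosome 7, was written as 0.00 in HSF V30M against 0.219 in HSF WT, or about 5 fragments, where 3 fragments would have given 0.117 in HSF V30M. Cacng5 was at 0.12 in HSF V30M, about 10 fragments, while HSF WT is listed at 0, with a limit of 0.0558 from 3 fragments. Cacng3 was at 0.14 and 0.229, and Cacng2, at 0.04 and 0.0244, and Cacng4 had at most 5 fragments in either group. HSF V30M values are written with 2 decimals, so that any value under 0.005 appears as 0.00.

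Subunits known from skeletal muscle were mostly lower in HSF V30M. Cacna1s, the L-type pore and voltage sensor of muscle, was at 0.56 in HSF V30M against 0.835 in HSF WT, on about 80 and 92 fragments. Cacng1, which encodes the gamma subunit of the same channel, was written as 0.00 and was at 0.506 in HSF WT, about 10 fragments, where 3 fragments would have given 0.132 in HSF V30M. Cacng6 was written as 0.00 and was at 0.124 in HSF WT, about 4 fragments. With Scn4a (about 9 and 22 fragments), Cacnb1 and Cacna2d1, 6 of 7 muscle-type subunits were lower in HSF V30M by any amount. By the same measure, 7 of the 17 subunit genes over the minimum and 15 of the 23 under it were lower. The share of all genes lower by any amount was not computed, so only the other subunits stand beside the muscle-type count. Skeletal muscle markers were mostly lower too. Of 18 such genes, 13 had a mean of at least 1 and 12 of these were lower past the fold, with a median log2 ratio of -1.12. Ckm, the muscle creatine kinase, was at 8.97 and 43.8, and the fast myosin gene Myh4 at 3.74 and 21.1, while Tnnt1 was at 2.69 and 2.11. The summed FPKM of the list was 60.1 in HSF V30M against 204 in HSF WT, and none of its genes was at 0 in both. The part of muscle tissue in these subunit values was not tested. Of the 7 muscle-type subunits, only Cacnb1 and Cacna2d1 had a mean of at least 1, and both were inside the fold. Leaving them out therefore could not change the counts past the fold, 2 higher and 0 lower.

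Genes whose products anchor or modulate sodium channels included some of the highest genes named here. Of the 21 listed, 17 had a mean of at least 1, and 1 was higher and 0 lower past the fold, with a median log2 ratio of 0.07. The higher one was Atp1b1, a subunit of the sodium pump, at 2.85 in HSF V30M against 1.44 in HSF WT. Sptbn1, a spectrin of the submembrane skeleton, was the highest of the list, with 322 and 306. Ank3, the gene of ankyrin G that holds sodium channels at the node, was at 118 and 96.7. Nfasc, which encodes neurofascin, was at 73.9 and 56.5, and Gldn, a Schwann cell ligand of neurofascin at the node, at 37.1 and 27.7, both inside the fold. Other genes of the list were lower in HSF V30M, also inside the fold. Nedd4, a ubiquitin ligase, was at 170 and 253, Ank2, the gene of ankyrin B, at 42.2 and 48.4, and Nrcam, an adhesion molecule of the node, at 16.1 and 19.9. Of the 17 genes, 10 were higher and 7 lower in HSF V30M by any amount. Under the minimum, the axonal spectrin Sptbn4 was at 0.24 and 0.103, and the axonal adhesion molecule Cntn1 at 0.73 and 1.04. Markers of neurons moved unevenly beside Scn8a: of 16 genes, 8 had a mean of at least 1, with Tubb3 at 9.68 in HSF V30M against 1.14 in HSF WT and Uchl1 at 86.9 and 43.4 as the 2 past the fold, and a median log2 ratio of 0.25. By any amount, 6 of these 8 genes were higher and 2 lower in HSF V30M. The summed level of the neuron list was 121 in HSF V30M against 68.8 in HSF WT. Uchl1 and Tubb3 account for nearly all of this gap. None of the genes of the list was at 0 in both groups, and the part of axonal RNA in the Scn8a values was not tested.

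Of 24 regulators of calcium channels, 20 had a mean of at least 1, and 1 was higher and 2 lower past the fold, with a median of 0.08. The higher one was Cabp1, a calmodulin-like calcium sensor, at 3.95 in HSF V30M against 1.35 in HSF WT. The lower ones were Rem1, a small GTPase of the family that inhibits these channels, at 13.1 and 27.0, and Stac2, an adaptor that binds L-type channels, at 0.67 and 1.97. Ahnak, a large scaffold protein, was the highest of the list, at 589 and 556. Of 14 genes of the muscle triad and of calcium release, 7 had a mean of at least 1. Among these, Fkbp1b was higher past the fold at 3.72 and 1.43, and 2 were lower. They were Casq2, a calcium store protein, at 25.9 in HSF V30M against 60.1 in HSF WT, and Atp2a1, the calcium pump of fast muscle, at 3.63 and 13.9. The median of these 7 was -0.03, and Fkbp1a, the highest, was at 209 and 214. Of 16 genes of other cation channels and calcium transport, 12 had a mean of at least 1, with a median of -0.08, and the calcium pump gene Atp2b1, at 15.9 and 27.8, was the 1 gene past the fold, lower in HSF V30M. Itpr3, an intracellular calcium release channel and the highest of the list, was at 44.7 and 50.6. Nalcn, the sodium leak channel related in structure to these alpha subunits, was at 3.23 and 2.29.

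**Figure D4:**
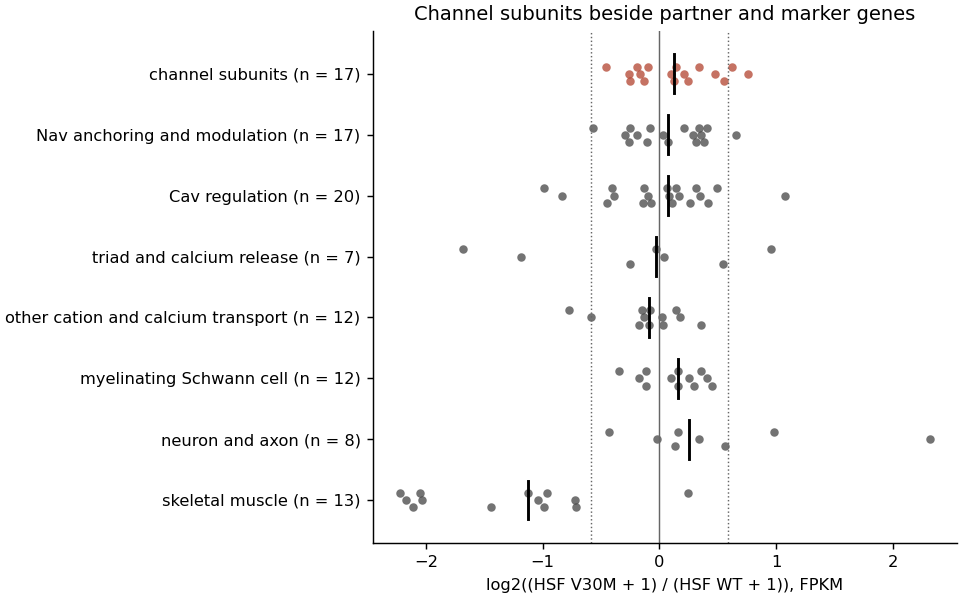
Difference between the groups as log2((HSF V30M + 1) / (HSF WT + 1)) for genes whose mean FPKM reached 1, with 1 point per gene, black bars for the median of a list and dotted lines for a fold of 1.5. The 17 channel subunits (red) centre on 0.13 and the skeletal muscle markers on -1.12.

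Across the series, the tissue label was borne out by Schwann cell genes. All 12 markers of myelinating Schwann cells were present, with a summed FPKM of 13360 in HSF V30M against 11860 in HSF WT, 0 past the fold and a median of 0.16. Among 7 genes of the Schwann cell lineage, S100b and Foxd3 were higher past the fold in HSF V30M. The median log2 ratio was 0.10 for smooth muscle and pericytes, 0.25 for endothelium, 0.40 for the 2 heart muscle genes above the minimum, -0.15 for fibroblasts and perineurium, -0.41 for adipocytes, -0.48 for macrophages, -2.07 for B cells and -1.39 for T cells, and it was 1.76 for neutrophils and 1.40 for erythrocytes. Some of these lists were split. Of the 11 smooth muscle and pericyte genes, 2 were higher and 2 lower past the fold in HSF V30M. The summed FPKM of that list was 747 in HSF V30M against 1355 in HSF WT, with Tagln at 472 and 1102. Of the 6 neutrophil genes over the minimum, 5 were higher and 1 lower past the fold. Hsf1, of which both groups lack 1 allele by their genotype, was at 7.94 in HSF V30M against 15.0 in HSF WT. Mouse Ttr was at 6.10 under the label HSF V30M, a genotype null for that gene, and at 0 under the label HSF WT, so it went against the labels. Whether reads of the human transgene were counted on the mouse gene was not tested, and every direction above rests on the labels as given.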

How the data were processed

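RNA of sciatic nerve was sequenced from Ion Torrent libraries. The authors had reads aligned to GRCm38, the C57BL/6J genome, although the mice were of a 129 strain. The submitters' processing notes name STAR, Cufflinks and Cuffdiff, and versions, options, strand setting and annotation are not given in the sources used here. The authors deposited 1 table with a Cuffdiff FPKM per gene and group, written with decimal commas that were read as points. Its other columns hold the authors' fold change, statistic, p-value, q-value and call, and were not used.

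Ratios were taken as log2 with a pseudocount of 1, on genes of mean FPKM 1 or more, without the 23 genes marked as having too many alignments. The members and lists were chosen with earlier results of these data known. By rule, the text names every member over that minimum, members under it that differ over 1.5 times without a pseudocount, and from each partner or marker list the highest gene and at most 4 genes past the fold. Marker lists are mostly given by their medians, for brevity, and some genes that the rule names are counted but not reported here. Ank2, Ank3, Cntn1, Nfasc, Nrcam, Gldn, Nedd4, Sptbn4, Nalcn, Tnnt1 and overlapping genes fall outside the rule and were chosen after their values were seen.

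Coordinates and principal transcripts are from GENCODE release M21, which holds all 40 genes. The worth of a fragment, in FPKM times effective kilobases, came from genes with 1 transcript and no neighbour in their locus, with a fragment length of 200 ± 80 bases (SD). It was 0.0391 and 0.0462 for the HSF V30M libraries, and 0.0481 and 0.0647 for those of HSF WT. Limits at 0 are 3 fragments of the shallower library. The design named a Poisson interval for each value, and a Clopper-Pearson interval (95%) of the ratio was used instead. This change, the length model, the transcript choice and the minimum of 20 fragments were made after the values had been seen. The computations were tested on simulated data. The software was Python 3.11.15 with numpy 2.4.6 and pandas 2.3.3, beside scipy 1.17.1 for intervals and matplotlib 3.10.9 for plots. Alternatives were other pseudocounts, minimums, folds and scaling, a protein-coding background, and leaving out muscle subunits.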

Additional observations from a re-analysis of the deposited data

How the results depend on the processing

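No paired analysis was possible because Cuffdiff pooled the mice of each group, and leaving out a replicate could not be done either. Of the 17 subunit genes over the minimum, 2 were past 1.5-fold toward HSF V30M. This count was 4 with a pseudocount of 0.1 and 4 with none, 1 of the 5 genes left with a minimum of 5, and 0 with a fold of 2. The count toward HSF WT, 0 as reported, was 3 without a minimum, and the median log2 ratio, 0.13 as reported, was then -0.0859. Shares of all genes were computed with the main pseudocount, minimum and fold only, so none stands beside these other counts. The shifts in the counts and the median follow from the settings. A pseudocount shrinks the ratios of low genes, and Cacna1e, Cacna1f and Cacng1, the 3 genes added without a minimum, have a mean under 1. Of the 23 genes under the minimum, 15 were lower in HSF V30M by any amount. Median-of-ratios scaling kept both counts. Leaving out the muscle-type subunits could not change them, since those over the minimum were inside the fold. Another pseudocount cannot change the sign of a ratio, and the scaling factors, 0.9986 for HSF V30M and 1.0014 for HSF WT, were nearly 1. That no ratio of the 17 genes changed sign therefore says nothing of their stability. The log2 ratio of Scn8a was 1.14 without a pseudocount. Of protein-coding genes alone, 5.03% were higher and 5.32% lower past the fold. Of 48 alternatives for the partner list counts, 15 moved a count by more than 1.5 times, and of 73 for the marker list medians, 22 moved a median by more than 0.1. Depth limits the members under about 20 fragments in a group, 15 of 40.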
